A study of Homo sapiens with 6 samples.

Results

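Autophagy is the process by which cells enclose cytoplasm in a double membrane and deliver it to lysosomes for breakdown. The ULK1 kinase complex starts it, a lipid kinase complex built around BECN1 marks the membrane, and a conjugation system attaches small ubiquitin-like proteins of the ATG8 family (the LC3 and GABARAP proteins) to the growing membrane, where cargo receptors dock. MITF, TFE3 and TFEB are related transcription factors that drive lysosomal and autophagy genes, and in fibroblast-like cells as elsewhere much of the control of autophagy acts on proteins rather than on mRNA. The genes described here are 39 members of this machinery, chosen by name from a list and found by their symbol in the deposited count table, out of 21619 entries in all. Each of the 39 symbols stood on a single entry, and 38 of them passed the filter on low counts.

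The data are polyA RNA sequencing of HT1080, a human fibrosarcoma cell line, in 6 libraries. In 3 libraries (PGK1_OE) the cells carried stable overexpression of PGK1, phosphoglycerate kinase, an enzyme of glycolysis. The other 3 libraries came from cells labelled wild type (WT). The labels name no agent, dose or time, and do not state the construct, whether the overexpressing line is 1 clone, or whether the WT cells carry an empty vector. They also do not say whether replicates were separate cultures, so p-values speak only of the scatter among the libraries at hand, and that scatter may be technical.

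Depth was between 34425162 and 40538274 counts per library, and all libraries carried 1 batch label. PGK1 mRNA stood at 13340, 12221 and 12418 CPM (normalised counts scaled to a common depth) in the PGK1_OE libraries and at 523, 527 and 519 CPM in the WT libraries, a 24.2-fold difference in the direction of the labels. Of 8 mesenchymal markers 6 rose, among them VIM (3569 CPM in PGK1_OE, 1890 in WT), and 2 fell, CDH2 (105 CPM in PGK1_OE, 153 in WT) and THY1, which was close to 0 in both (0.0545 CPM in PGK1_OE, 0.465 in WT). Their summed level lay between 8148 and 8435 CPM in PGK1_OE and between 4413 and 5186 CPM in WT libraries. Of 5 epithelial markers KRT8 and KRT18 rose, CDH1 fell (0 counts in each PGK1_OE library, 17, 28 and 16 counts in the WT libraries), CLDN4 did not pass and EPCAM had 0 counts throughout. Their sum, nearly all from the keratins, lay between 313 and 328 CPM in PGK1_OE and between 151 and 170 CPM in WT. Of 4 leukocyte markers only CD68 passed the filter on low counts, it was not called, and PTPRC had 0 counts throughout. The sum of 220 to 248 CPM in PGK1_OE and 215 to 239 CPM in WT came almost wholly from CD68, a lysosomal membrane protein also made by other cells. Of 3 endothelial markers PECAM1 rose (10.4 CPM in PGK1_OE, 3.15 in WT). VWF was not called (0.853 CPM in PGK1_OE, 1.40 in WT) and CDH5 was not tested (0.0504 CPM in PGK1_OE, 0.279 in WT). Their sum, most of it from PECAM1, lay between 10.1 and 13.3 CPM in PGK1_OE and between 4.05 and 5.28 CPM in WT. The part of these lists in the results was not tested. In RNA from whole cultures, fewer cells of a kind and less RNA per cell cannot be told apart. Exons of 20 of the 39 genes overlap exons of another gene, and since strand use in counting is not given, their counts are to that extent uncertain. Levels are given as CPM after TMM normalisation or, for comparisons between genes, as the deposited FPKM, which is per length of the gene. Log2 fold changes (log2FC) are PGK1_OE over WT with their standard error (SE), and each adjusted p comes from a quasi-likelihood F-test in edgeR, corrected by Benjamini and Hochberg's method over all 14322 entries tested.

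Autophagy genes moved in both directions, and the larger changes were falls. Of the 38 genes tested, 7 rose and 18 fell at an adjusted p under 0.05, and 13 did not pass. That is 65.8% of the genes tested, whereas 71.2% of all entries tested passed. Rises made up 18.4% of the autophagy genes, against 35.4% of all entries, and falls 47.4% against 35.8%. A fall of at least 2-fold was found for 5 genes, MAP1LC3B, MITF, GABARAPL1, WIPI1 and ATG101, and a rise of at least 2-fold for 0 genes. Among all entries tested, falls of that size made up 12.1% and rises 12.0%. The 5 of 38 falls are thus near the share of all entries, and the 0 of 38 rises below it. The median log2 fold change was -0.15 over the 38 genes and -0.02 over all entries, and the median absolute log2 fold change was 0.37 over the 38 genes and 0.56 over all entries. The 3 PGK1_OE values lay wholly above or below the 3 WT values for 28 of the 38 genes (73.7%), where 76.4% of all entries did so. The share of autophagy genes called in either direction was thus near that of all entries.

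**Figure D1:**
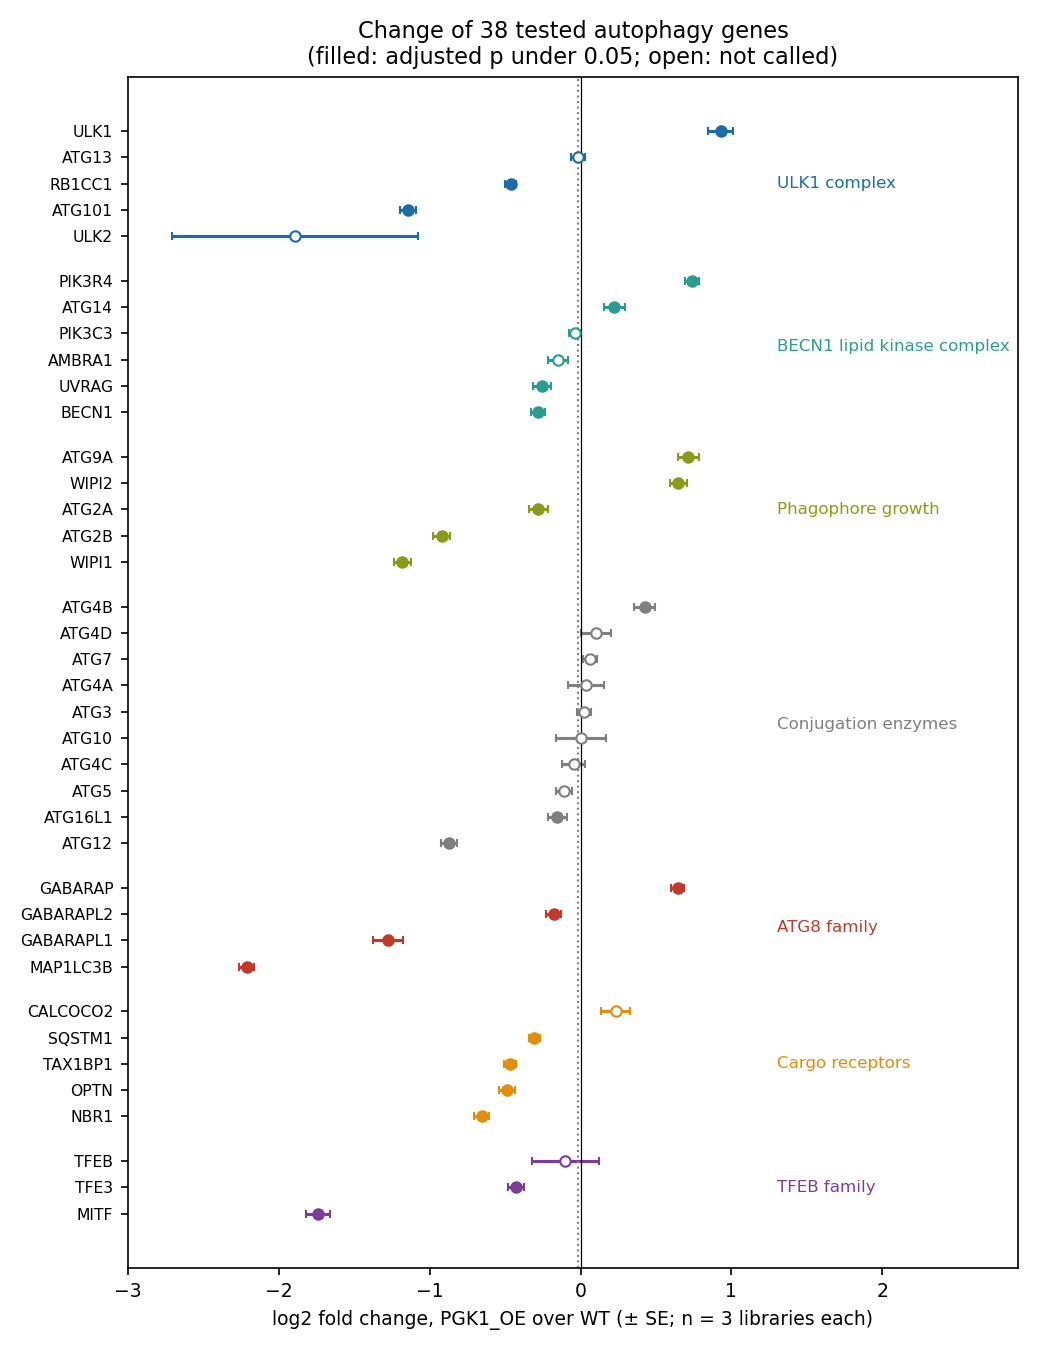
Log2 fold change (PGK1_OE over WT) of each tested autophagy gene with its SE, ordered by role from top to bottom; filled points passed an adjusted p of 0.05, open points did not, and the dotted line marks the median of all entries (-0.02). The points run from MAP1LC3B at -2.21 to ULK1 at 0.93, and most conjugation enzymes lie close to 0.

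The ULK1 complex phosphorylates the early membrane machinery, with ULK1 or its relative ULK2 as the kinase and ATG13, RB1CC1 and ATG101 as scaffolds. ULK1 stood at 23.1, 23.7 and 22.7 CPM in the PGK1_OE libraries and at 12.6, 11.4 and 12.5 CPM in the WT libraries. It rose by 0.93 log2 units (SE 0.08, edgeR adjusted p = 1.01e-06), the largest rise among the 38 genes (chromosome 12, 131894651 to 131923167 on GRCh38). ATG101, which stabilises ATG13, stood at 50.6, 48.9 and 48.2 CPM in the PGK1_OE libraries, against 104, 115 and 108 CPM in the WT libraries. It lies on chromosome 12 from 52069246 to 52077494, and an antisense gene covers 19.2% of its exonic bases. The groups did not overlap for either gene, and ATG101 fell (log2FC -1.14, SE 0.05, edgeR adjusted p = 2.45e-09). The log2 ratio of normalised CPM of ATG101 to ULK1 differed by -2.07, PGK1_OE minus WT (exact permutation test over libraries, two-sided p = 0.10). That p is the smallest that 3 against 3 libraries can give, and 6 such gene pairs were compared. The pairs were chosen with their changes known. Where both genes separated without overlap in opposite directions, as here, no other p was possible, so it adds no support.

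RB1CC1, the large scaffold also called FIP200, fell by a smaller amount (log2FC -0.46, SE 0.04, edgeR adjusted p = 4.54e-07). ATG13 was at 99.6 ± 4.20 CPM in PGK1_OE and 101 ± 2.03 CPM in WT libraries (SD, n = 3 each), with overlapping groups. Its log2 fold change was -0.02 (95% interval -0.12 to 0.08, edgeR adjusted p = 0.738), and on the log2(FPKM + 1) scale it was -0.14 (limma adjusted p = 0.0482). ULK2 was barely detected, with 0, 4 and 10 counts in the PGK1_OE libraries and 19, 12 and 21 counts in the WT libraries. Its log2 fold change of -1.89 (SE 0.82) did not pass (edgeR adjusted p = 0.0570). It passed without PGK1_OE replicate 3 (adjusted p = 0.0182), with limma-voom (-2.71, adjusted p = 0.0273) and over Ensembl entries only (edgeR adjusted p = 0.0358). ULK2 did not pass with DESeq2 (adjusted p = 0.0975) or without a low-count filter (edgeR adjusted p = 0.109). Per length ULK1 was the more abundant kinase gene, at 3.99 ± 0.110 FPKM in PGK1_OE and 2.16 ± 0.107 FPKM in WT, against 0.0120 and 0.0485 FPKM for ULK2.

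In the lipid kinase complex, PIK3C3 (VPS34) makes phosphatidylinositol 3-phosphate and PIK3R4 (VPS15) anchors it, while BECN1 binds either ATG14 or UVRAG and AMBRA1 binds BECN1. PIK3R4 stood at 94.9, 99.2 and 100 CPM in the PGK1_OE libraries and at 60.1, 60.1 and 56.1 CPM in the WT libraries. All PGK1_OE values were the higher, and PIK3R4 rose (log2FC 0.74, SE 0.05, edgeR adjusted p = 6.49e-08). BECN1 itself stood at 102, 91.7 and 99.7 CPM in the PGK1_OE libraries and at 121, 117 and 119 CPM in the WT libraries. It fell modestly (log2FC -0.28, SE 0.05, edgeR adjusted p = 2.38e-04). Its exons share 4.68% of their bases with PSME3 and 12.4% with CNTD1, both on the opposite strand. Over the 6 libraries PSME3 had 58545 counts and CNTD1 348, and the part of these overlaps in the BECN1 result was not tested.

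The alternative partners of BECN1 moved apart. UVRAG, which acts in endosome and late autophagosome traffic, fell (log2FC -0.26, SE 0.06, edgeR adjusted p = 0.00204). ATG14, which directs the complex to autophagosome formation, stood at 36.9, 35.5 and 38.4 CPM in the PGK1_OE libraries and at 32.3, 28.6 and 33.9 CPM in the WT libraries. ATG14 rose by 0.22 log2 units (SE 0.07, edgeR adjusted p = 0.0151), and that call was lost without PGK1_OE replicate 3 (adjusted p = 0.0552). AMBRA1 did not pass (-0.15, SE 0.07, edgeR adjusted p = 0.0613), though its groups did not overlap. It passed without WT replicate 2 (adjusted p = 0.0260) and with library totals as the scaling (-0.20, adjusted p = 0.0177). With DESeq2 (adjusted p = 0.124) and on log2(FPKM + 1) (limma adjusted p = 0.0943) AMBRA1 did not pass.

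The catalytic subunit PIK3C3 gave different answers on the 2 deposited scales. On counts it stood at 91.8 ± 1.06 CPM in PGK1_OE and 94.1 ± 0.509 CPM in WT libraries (SD, n = 3 each), a log2 fold change of -0.04 (95% interval -0.12 to 0.05, edgeR adjusted p = 0.441). On the deposited FPKM it stood at 9.19, 9.34 and 9.19 in the PGK1_OE libraries and at 11.1, 10.9 and 11.5 in the WT libraries, and its difference on the log2(FPKM + 1) scale was -0.25 (limma adjusted p = 0.00204). How the FPKM values were derived from reads is not given in the sources used here.

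Membrane growth needs the lipid scramblase ATG9A, the lipid transfer proteins ATG2A and ATG2B, and the WIPI proteins that read phosphatidylinositol 3-phosphate. All 5 were called, where 71.2% of all entries were, with 2 up and 3 down. WIPI1 stood at 28.6, 28.1 and 30.8 CPM in the PGK1_OE libraries, against 64.6, 67.6 and 66.3 CPM in the WT libraries. WIPI2, which recruits ATG16L1, stood at 91.0, 90.8 and 96.5 CPM in the PGK1_OE libraries, against 60.5, 55.2 and 61.7 CPM in the WT libraries. WIPI1 fell (log2FC -1.18, SE 0.06, edgeR adjusted p = 4.58e-09) while WIPI2 rose (0.65, SE 0.05, edgeR adjusted p = 5.08e-07), and neither pair of groups overlapped.

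Per length, WIPI2 was the higher of the pair in PGK1_OE, at 33.7 ± 1.04 FPKM with WIPI1 at 15.2 ± 0.884 FPKM, and WIPI1 in WT, at 33.4 ± 1.05 FPKM with WIPI2 at 24.1 ± 2.20 FPKM (SD, n = 3 each). On the scale of normalised CPM, the log2 ratio of WIPI1 to WIPI2 differed by -1.83, PGK1_OE minus WT (exact permutation p = 0.10, two-sided, the smallest possible). The opposite changes of WIPI1 and WIPI2, without overlap, fixed that p in advance. WIPI1 (chromosome 17, 68420948 to 68457513) shares 24.3% of its exonic bases with ARSG on the opposite strand. ARSG had 1839 counts over the 6 libraries, and the part of this overlap in the WIPI1 result was not tested. ATG2B stood at 55.8, 56.6 and 50.1 CPM in the PGK1_OE libraries and at 103, 99.5 and 106 CPM in the WT libraries, and fell (log2FC -0.92, SE 0.05, edgeR adjusted p = 3.17e-08). Its relative ATG2A fell less (-0.28, SE 0.06). ATG9A, the transmembrane protein of the seed vesicles, rose by 0.71 log2 units (SE 0.07, edgeR adjusted p = 3.29e-06), a value that is uncertain because AC068946.2 on the same strand shares 38.8% of its exonic bases and had 3609 counts over the 6 libraries.

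**Figure D2:**
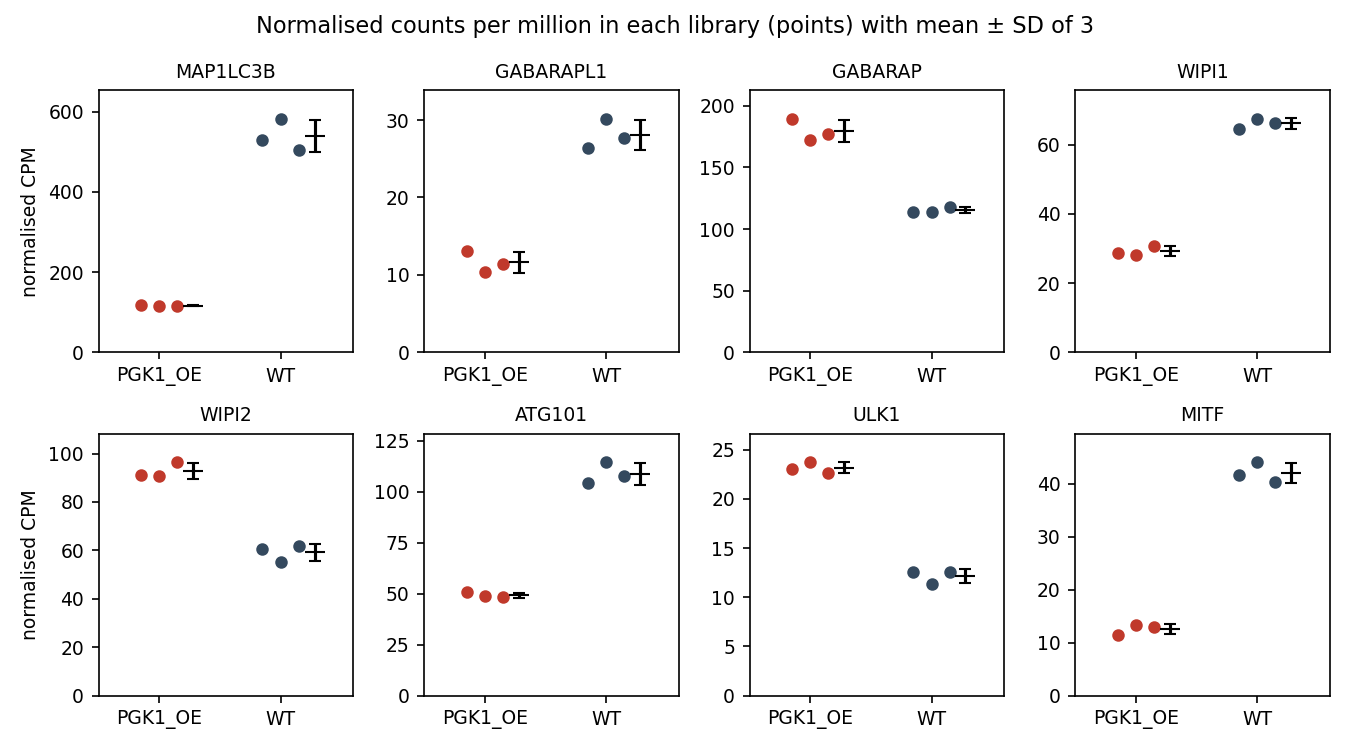
Normalised CPM of 8 autophagy genes in each library (points; PGK1_OE left, WT right) with the mean ± SD of 3 libraries beside them. In every panel the 3 PGK1_OE points lie wholly above or wholly below the 3 WT points, with MAP1LC3B between 115 and 118 CPM in PGK1_OE and between 505 and 583 CPM in WT.

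Conjugation enzymes cut the ATG8 proteins (ATG4A to ATG4D), activate and pass on the ATG8 proteins and ATG12 (ATG7, ATG3, ATG10), and form the ATG12, ATG5 and ATG16L1 complex that places them on the membrane. Of 10 genes tested, 1 rose, 2 fell and 7 did not pass, so 30.0% were called, against 71.2% of all entries. Their median absolute log2 fold change was 0.08, against 0.56 over all entries. A missed threshold does not show equal levels, and the 95% intervals of the log2 fold change were -0.08 to 0.12 for ATG3, -0.04 to 0.16 for ATG7, -0.23 to 0.0044 for ATG5 and -0.36 to 0.37 for ATG10, the last with 167 to 204 counts per library and 6.86% of its exonic bases shared with the abundant RPS23 on the opposite strand. ATG5 passed without WT replicate 2 (edgeR adjusted p = 0.0327) and with library totals as the scaling (-0.16, edgeR adjusted p = 0.0163). With DESeq2 (adjusted p = 0.145) and on log2(FPKM + 1) (limma adjusted p = 0.205) ATG5 did not pass.

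ATG12 was the exception in size. It stood at 55.2, 60.1 and 60.1 CPM in the PGK1_OE libraries and at 103, 112 and 106 CPM in the WT libraries, without overlap, and fell (log2FC -0.87, SE 0.05, edgeR adjusted p = 3.43e-08). In the deposited FPKM its difference was larger, with 14.5, 15.8 and 16.8 in the PGK1_OE libraries and 36.3, 39.4 and 34.8 in the WT libraries. AP3S1 on the opposite strand shares 4.25% of the exonic bases of ATG12 and had 22204 counts over the 6 libraries. ATG4B, the main protease that trims LC3, stood at 36.0, 36.7 and 40.1 CPM in the PGK1_OE libraries and at 29.5, 27.8 and 26.6 CPM in the WT libraries and rose by 0.42 log2 units (SE 0.07, edgeR adjusted p = 1.39e-04). The log2 fold changes of the other three ATG4 genes lay between -0.05 and 0.10 and did not pass. ATG16L1 was only just called (log2FC -0.15, SE 0.06, edgeR adjusted p = 0.0430), its groups overlapped, and the call was lost without PGK1_OE replicate 2 (0.122), PGK1_OE replicate 3 (0.146), WT replicate 1 (0.200) or WT replicate 3 (0.0727), with adjusted p in parentheses.

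The ATG8 family held the largest fall. MAP1LC3B (chromosome 16, 87383995 to 87404779), which encodes the LC3 protein most used as an autophagosome marker, had 4718, 4573 and 4062 counts in the PGK1_OE libraries and 20023, 20600 and 18477 counts in the WT libraries. These correspond to 118, 115 and 115 CPM in PGK1_OE and 528, 583 and 505 CPM in WT. MAP1LC3B was 4.64-fold lower in PGK1_OE (log2FC -2.21, SE 0.05, edgeR adjusted p = 3.00e-11), with tight PGK1_OE values far below those of WT. The near-identical copy MAP1LC3B2, named here after its values were seen, had 43 to 58 counts in PGK1_OE libraries and 151 to 172 in WT libraries, or between 0.754% and 1.27% of the MAP1LC3B counts, and reads of the copies may be exchanged.

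GABARAP (chromosome 17, 7240014 to 7242770) moved the other way. It stood at 190, 173 and 178 CPM in the PGK1_OE libraries and at 114, 114 and 118 CPM in the WT libraries, and rose (log2FC 0.64, SE 0.04, edgeR adjusted p = 1.09e-07). GABARAPL1 (chromosome 12, 10212458 to 10223130) stood at 13.1, 10.4 and 11.4 CPM in the PGK1_OE libraries and at 26.4, 30.2 and 27.7 CPM in the WT libraries, and fell (-1.27, SE 0.10, edgeR adjusted p = 3.03e-07). GABARAPL2 (GATE-16) fell slightly (-0.18, SE 0.05, edgeR adjusted p = 0.00827). MAP1LC3A had 4 counts in PGK1_OE replicate 1 and 0 in the other 5 libraries, where a count of 0 allows up to between 0.0756 and 0.0851 CPM, and it was not tested. The log2 ratio of normalised CPM to that of GABARAP, PGK1_OE minus WT, differed by -2.85 for MAP1LC3B, -1.92 for GABARAPL1 and -0.82 for GABARAPL2 (exact permutation p = 0.10 for each, two-sided, the smallest possible). Each of these genes lay wholly below WT and GABARAP wholly above it, which fixed that p in advance.

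Read per length, the make-up of ATG8 mRNA differed between the groups. MAP1LC3B made up 19.5 ± 0.458% of the summed FPKM of the family in PGK1_OE and 58.4 ± 1.27% in WT libraries (SD, n = 3 each). GABARAP made up 52.6 ± 0.877% in PGK1_OE and 20.3 ± 1.15% in WT, and GABARAPL2 25.8 ± 0.738% in PGK1_OE and 18.1 ± 0.165% in WT. GABARAPL1 held 2.11 ± 0.194% in PGK1_OE and 3.24 ± 0.105% in WT. The summed level was 254 ± 9.80 FPKM in PGK1_OE and 424 ± 27.4 FPKM in WT. Thus GABARAP held the largest share in each PGK1_OE library and MAP1LC3B in each WT library. AC120057.2, which covers 30.5% of the exonic bases of GABARAP on the same strand, had 0 counts in every library.

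**Figure D3:**
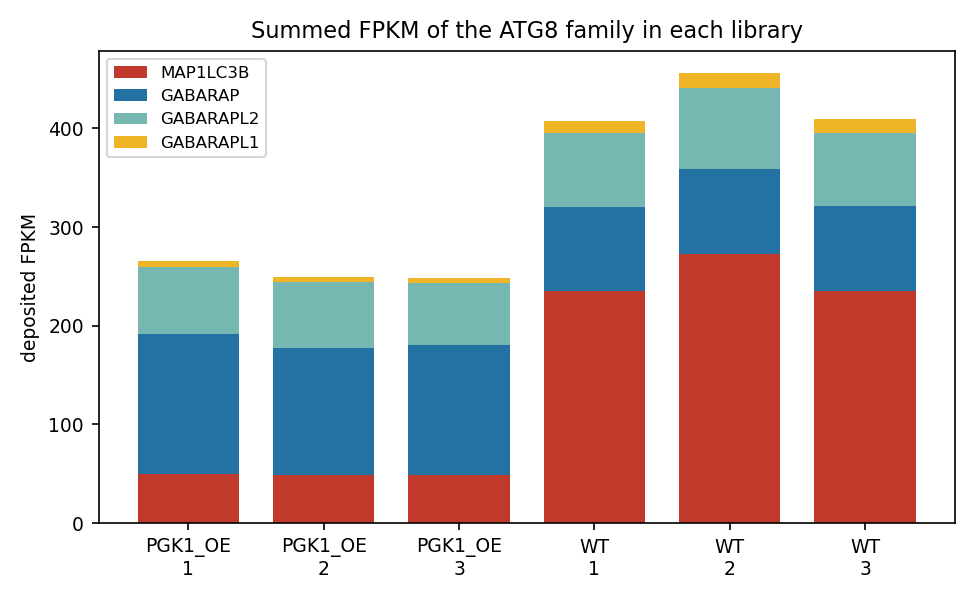
Deposited FPKM of the ATG8 family genes stacked for each library (PGK1_OE replicates 1 to 3 at the left, WT replicates 1 to 3 at the right). The MAP1LC3B segment is 48.8 to 50.3 FPKM in PGK1_OE and 235 to 273 FPKM in WT, while the GABARAP segment is taller in PGK1_OE (129 to 142) than in WT (84.6 to 86.5).

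The 5 genes that fell at least 2-fold have annotated promoters, and those of GABARAPL1, MITF and MAP1LC3B are shown because they head the falls. The windows are from RefSeq on GRCh38.p14 and hold 250 bases before and 50 after the annotated start, read 5′ to 3′ on the gene's strand. The single capital marks the annotated first base, and longer runs of capitals mark matches to TGACGTC on either strand, which overlap here, the core of a cAMP response element. Of the MITF windows the one shown is the only one with that motif. Which MITF start these cells use was not tested.
MAP1LC3B (chr16:87392086-87392385, plus strand): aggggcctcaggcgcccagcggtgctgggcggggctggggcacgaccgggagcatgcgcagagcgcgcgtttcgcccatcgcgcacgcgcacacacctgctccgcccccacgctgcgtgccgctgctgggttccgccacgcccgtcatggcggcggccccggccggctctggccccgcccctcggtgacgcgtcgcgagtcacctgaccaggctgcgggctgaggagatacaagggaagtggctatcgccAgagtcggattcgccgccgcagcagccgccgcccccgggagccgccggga
GABARAPL1 (chr12:10212627-10212926, plus strand): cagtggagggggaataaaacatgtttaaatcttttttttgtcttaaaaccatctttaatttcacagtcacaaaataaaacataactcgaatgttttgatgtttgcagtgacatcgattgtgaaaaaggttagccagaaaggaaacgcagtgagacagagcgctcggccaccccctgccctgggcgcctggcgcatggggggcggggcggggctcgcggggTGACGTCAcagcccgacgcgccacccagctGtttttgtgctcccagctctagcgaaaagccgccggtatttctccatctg
MITF, the most downstream of its 3 windows (chr3:69936342-69936641, plus strand): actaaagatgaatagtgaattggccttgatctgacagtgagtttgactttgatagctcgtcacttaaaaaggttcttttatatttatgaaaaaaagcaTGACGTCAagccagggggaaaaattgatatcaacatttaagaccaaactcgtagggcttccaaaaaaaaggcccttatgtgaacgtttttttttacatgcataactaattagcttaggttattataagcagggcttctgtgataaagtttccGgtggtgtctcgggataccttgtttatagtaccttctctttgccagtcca

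The windows were searched on both strands for CACGTG, the E-box at the core of the elements that TFEB and its relatives bind, for its extension TCACGTG, and for TGATGCA, the core of the elements bound by ATF4 with C/EBP factors. A promoter window was found for 35 of the 39 genes. None of the 5 genes with a fall of at least 2-fold had any of the 3 motifs in any window. CACGTG stood in 2 of 47 autophagy windows (4.26%), those of ATG3 and ATG14, and in 7.26% of all 35116 windows. Both of them also matched TCACGTG, which contains CACGTG and stood in 3.71% of all windows. TGATGCA stood in 0 of 47 windows, against 2.63% of all windows. TGACGTC was searched after the windows had been read, and stood in 2 of 47 windows, those of GABARAPL1 and MITF above, and in 3.45% of all windows. A match is only a run of letters, and the absence of one says only that it is not in this window. The 3 E-boxes are shown with 10 bases on each side and the motif in capitals.
ATG3 (chr3:112561965-112561990, minus strand): tttctcacgtCACGTGccgggagagt
ATG3 (chr3:112561942-112561967, minus strand): agtctagtgtCACGTGaggccccggt
ATG14 (chr14:55411836-55411861, minus strand): aacaaaatccCACGTGactggctctc

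Cargo receptors bind ubiquitinated material on one side and ATG8 proteins on the other. Of 5 receptor genes, 4 fell (80.0%, against 35.8% of all entries) and 0 rose (against 35.4%). SQSTM1 (p62) stood at 654, 666 and 644 CPM in the PGK1_OE libraries and at 829, 810 and 788 CPM in the WT libraries. It fell by 0.31 log2 units (SE 0.03, edgeR adjusted p = 7.81e-06), a small change without overlap of the groups. NBR1, a receptor of related architecture, stood at 145, 135 and 142 CPM in the PGK1_OE libraries and at 209, 234 and 221 CPM in the WT libraries, and fell most of the 5 (-0.66, SE 0.05, edgeR adjusted p = 1.97e-07). OPTN (-0.49, SE 0.05) and TAX1BP1 (-0.47, SE 0.04), receptors for bacteria and damaged mitochondria among other cargo, fell by similar amounts.

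CALCOCO2 (NDP52) was the receptor that did not fall. It stood at 81.6, 78.9 and 78.8 CPM in the PGK1_OE libraries and at 72.8, 56.7 and 74.0 CPM in the WT libraries, with WT replicate 2 the lowest. Its log2 fold change of 0.23 (SE 0.10) did not pass (edgeR adjusted p = 0.0623), and it passed without WT replicate 1 (0.0431), WT replicate 2 (0.0273) or WT replicate 3 (0.0255), with adjusted p in parentheses. It also passed with all 6 libraries under DESeq2 (adjusted p = 0.0160), limma-voom (0.0406), a minimum of 1 CPM in 3 libraries (edgeR, 0.0419) and Ensembl entries only (edgeR, 0.0331). CALCOCO2 did not pass with library totals (edgeR adjusted p = 0.0895), without a low-count filter (edgeR, 0.0905) or on log2(FPKM + 1) (limma, 0.141). SQSTM1 had the highest FPKM of the 39 genes in all 6 libraries. MAP1LC3B ranked 5, 5 and 6 in the PGK1_OE libraries and 2 in every WT library, and GABARAP ranked 2 in every PGK1_OE library and 3 in every WT library. Some 20.7% of the exonic bases of SQSTM1 are shared with MRNIP on the opposite strand, a gene with 7673 counts over the 6 libraries.

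**Figure D4:**
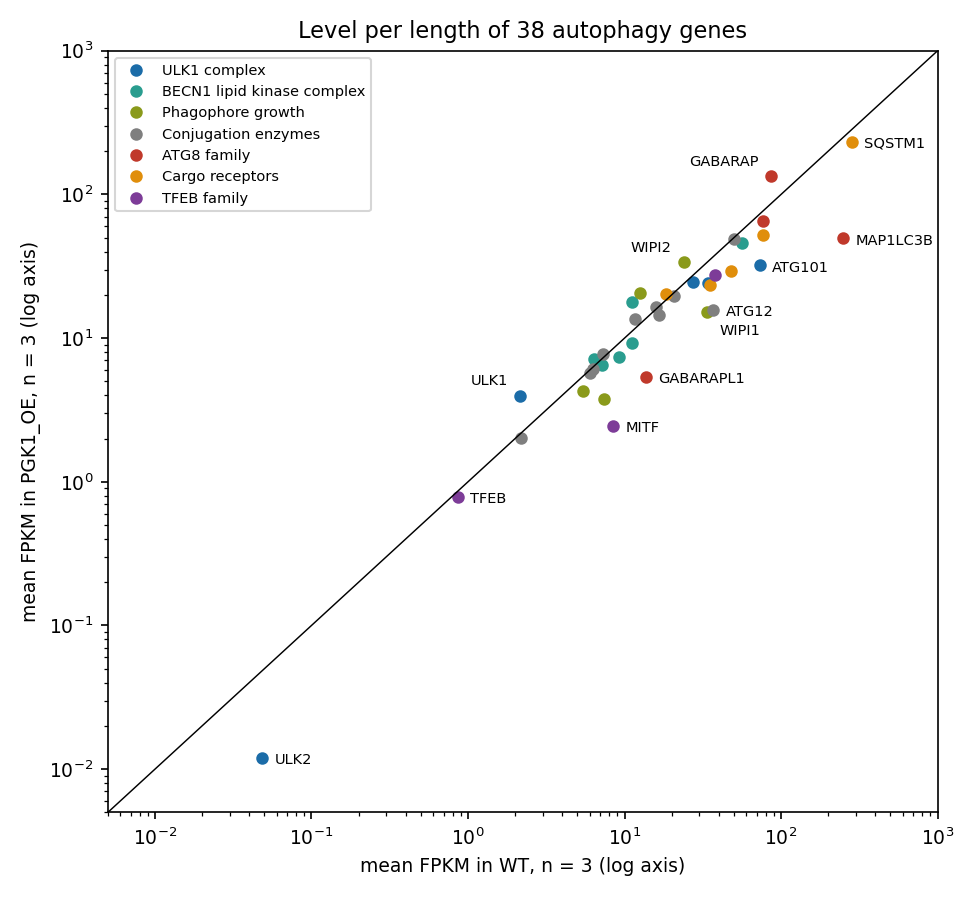
Mean deposited FPKM of 38 autophagy genes in PGK1_OE (vertical, log axis) against WT (horizontal, log axis), n = 3 libraries each, coloured by role; the line marks equal levels and MAP1LC3A, listed at 0 in WT, is left out. MAP1LC3B (49.5 FPKM in PGK1_OE, 248 in WT) lies far under the line, as do MITF, GABARAPL1, ATG12, WIPI1 and ATG101, while ULK1, WIPI2 and GABARAP lie above it.

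MITF, TFE3 and TFEB bind E-box elements of lysosomal and autophagy genes, and TFE3 and TFEB are held in the cytoplasm when mTORC1 is active. MITF (chromosome 3, 69739435 to 69968337) had 458, 525 and 459 counts in the PGK1_OE libraries and 1577, 1557 and 1472 counts in the WT libraries. It stood at 12.6 ± 0.976 CPM in PGK1_OE and 42.0 ± 1.94 CPM in WT libraries (SD, n = 3 each) and was 3.34-fold lower (log2FC -1.74, SE 0.08, edgeR adjusted p = 2.77e-09). Of 4 melanocyte markers, a lineage in which MITF is the central regulator, DCT fell (28.6 ± 1.01 CPM in PGK1_OE, 106 ± 1.71 CPM in WT), PMEL rose (4.03 CPM in PGK1_OE, 2.62 in WT), MLANA did not pass (0.711 CPM in PGK1_OE, 0.381 in WT) and TYR was at or near 0. Their summed level, most of it from DCT, lay between 32.5 and 34.4 CPM in PGK1_OE and between 108 and 111 CPM in WT. The part of these markers in the result was not tested. TFE3, the most abundant of the 3 per length at 27.3 ± 1.45 FPKM in PGK1_OE and 37.9 ± 2.03 FPKM in WT, fell by 0.43 log2 units (SE 0.05, edgeR adjusted p = 2.07e-05). TFEB was low in both groups, at 0.786 ± 0.0272 FPKM in PGK1_OE and 0.857 ± 0.147 FPKM in WT. Its log2 fold change of -0.10 did not pass and was loosely measured (95% interval -0.59 to 0.39, edgeR adjusted p = 0.704).

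Genes near this machinery were read from 5 further lists, with log2FC and SE in parentheses. Of 20 lysosomal and nutrient-sensing genes known as targets of the TFEB family, 14 rose (70.0%, against 35.4% of all entries) and 2 fell (10%, against 35.8%), with a median log2 fold change of 0.36 against -0.02 over all entries. The sialidase NEU1 stood at 99.0 ± 1.59 CPM in PGK1_OE and 43.2 ± 1.35 CPM in WT libraries (1.20, SE 0.05), and the galactosidase GLA at 35.1 ± 1.42 CPM in PGK1_OE and 10.4 ± 1.10 CPM in WT libraries (1.75, SE 0.09). The cathepsin CTSA rose as well (0.86, SE 0.04). Most of these lysosomal and nutrient-sensing targets thus rose while MITF and TFE3 fell. The list was chosen with earlier results of these data known. It holds none of the 38 autophagy genes tested, a class the family also drives, of which 18.4% rose and 47.4% fell. The 2 that fell were FLCN (-0.24) and FNIP1 (-0.39), partners in the control of the family by mTORC1. FNIP2, the relative of FNIP1 on the same list, rose (0.44, SE 0.06).

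Of 10 subunits of mTORC1 and AMPK, the nutrient and energy kinases that act on ULK1, 1 rose (10%, against 35.4% of all entries) and 7 fell (70.0%, against 35.8%), with a median of -0.44. The regulatory AMPK subunits held the largest falls. PRKAB2 stood at 19.9 ± 1.25 CPM in PGK1_OE and 79.7 ± 2.98 CPM in WT libraries (4.01-fold lower), PRKAB1 at 30.8 ± 2.11 CPM in PGK1_OE and 95.7 ± 5.51 CPM in WT (-1.64, SE 0.06), and PRKAG2 fell by 1.59 log2 units (SE 0.06). All AMPK subunits listed fell, the others being PRKAA1 (-0.26, SE 0.05), PRKAA2 (-0.65, SE 0.12) and PRKAG1 (-0.62, SE 0.04). The mTORC1 subunits were mixed. MTOR, its kinase, rose (0.58, SE 0.05) and MLST8 fell (-0.26, SE 0.06). RPTOR (0.05, SE 0.05) and AKT1S1 (-0.0031, SE 0.06) did not pass.

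Of 15 genes that fuse autophagosomes with lysosomes, 5 rose (33.3%, against 35.4% of all entries) and 7 fell (46.7%, against 35.8%), with a median of -0.09. These shares lie near those of all entries. The tethering factor EPG5 stood at 90.5 ± 4.14 CPM in PGK1_OE and 264 ± 22.5 CPM in WT libraries (-1.55, SE 0.06). The autophagosomal SNARE STX17 (-1.15, SE 0.06) and the adaptor PLEKHM1 (-0.75, SE 0.05) fell too. Among the 5 that rose, SNAP29 changed most (1.08, SE 0.09). Of 10 further cargo receptors and adaptors 3 rose (30.0%) and 4 fell (40.0%), again near the shares of all entries, with a median of 0.14. Among them were the reticulum receptor CCPG1 (-0.91, SE 0.05), WDFY3 (-0.64, SE 0.06) and RTN3 (0.26, SE 0.04). On the FPKM scale 1 of those 10 rose, as NCOA4 and TEX264 no longer passed (limma adjusted p = 0.726 and 0.0892). Of 12 tested paralogs and further core genes 5 rose (41.7%, against 35.4% of all entries) and 5 fell (41.7%, against 35.8%), with a median of -0.0012 and with EI24 rising (0.80, SE 0.04), and the WIPI relative WDR45 (42.2 ± 2.87 CPM in PGK1_OE, 84.2 ± 3.42 CPM in WT) and the scramblase TMEM41B (-0.67, SE 0.05) falling. The rises in that list numbered 3 without PGK1_OE replicate 2, PGK1_OE replicate 3 or WT replicate 2, where ATG9B and TFEC, at 1.70 and 1.13 CPM in PGK1_OE and 0.830 and 0.460 CPM in WT, no longer passed. Without PGK1_OE replicate 2 their adjusted p was 0.0664 and 0.0554, without PGK1_OE replicate 3 0.119 and 0.137, and without WT replicate 2 0.0897 and 0.0789, with ATG9B first. On the log2(FPKM + 1) scale 2 of the list rose, as ATG16L2 no longer passed (limma adjusted p = 0.444) and ATG9B and TFEC were below the FPKM minimum, and without that minimum the number was also 2.

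**Figure D5:**
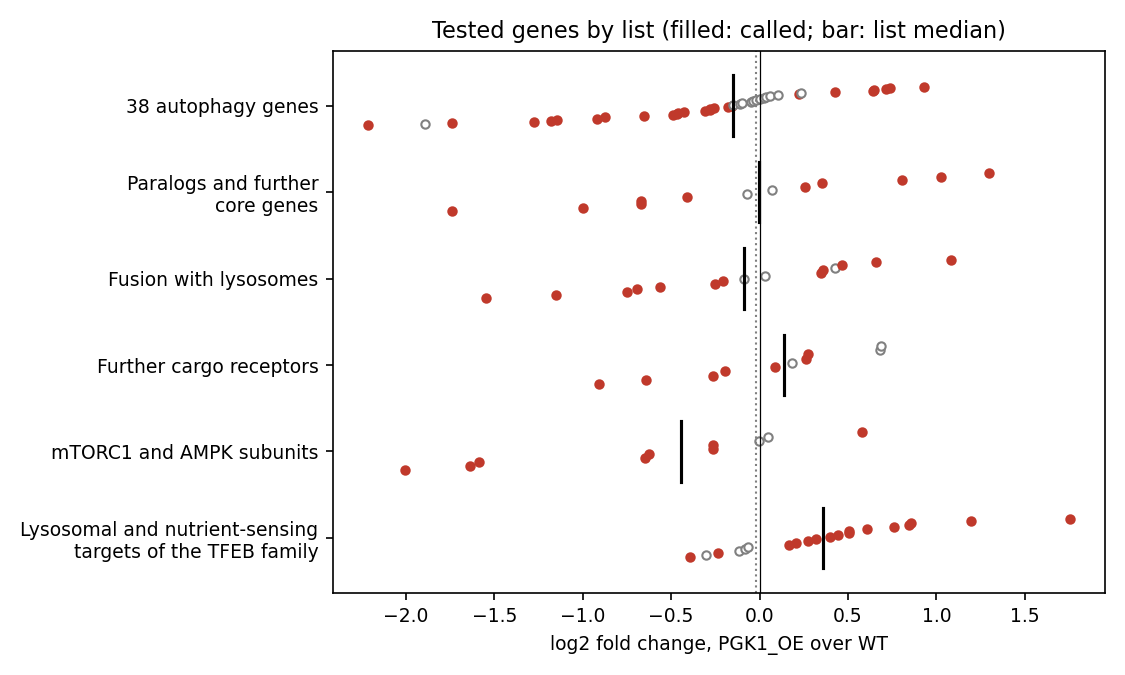
Log2 fold change (PGK1_OE over WT) of each tested gene in the autophagy set and 5 further lists; filled points passed an adjusted p of 0.05, open points did not, bars are list medians and the dotted line is the median of all entries (-0.02). The lysosomal and nutrient-sensing targets of the TFEB family lie mostly right of 0 with a median of 0.36. The mTORC1 and AMPK subunits lie mostly left of it with a median of -0.44, all AMPK subunits being on the left and the mTORC1 subunits on both sides.

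ATF4 and CHOP, transcription factors of the integrated stress response, are known to raise a set of 12 autophagy genes in amino acid-starved mouse fibroblasts. All 12 human counterparts are among the genes described. Of them 7 fell (58.3%, against 35.8% of all entries), 1 rose (8.33%, against 35.4%) and 4 did not pass. Their median log2 fold change was -0.17. The falls were those of MAP1LC3B, ATG12, NBR1, SQSTM1, BECN1, GABARAPL2 and ATG16L1, and the rise was that of GABARAP. ATG3, ATG5, ATG7 and ATG10 did not pass. The share that passed, 66.7%, is close to the 71.2% of all entries.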

How the data were processed

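Deposited were raw counts of reads for each gene and FPKM values, normalised by the authors for length and depth. Per the submitters' processing notes, the tools include fastp and HISAT with hg38. Versions, counter, strand setting, annotation and the FPKM tool are not stated in what was used here. Groups come from sample titles, and columns were matched through sample descriptions.

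Counts were fitted in R 4.3.3 with edgeR 4.0.16 (filterByExpr by group, TMM, robust quasi-likelihood, group as the only term), two-sided, with a call at an adjusted p under 0.05 over 14322 entries. The SE is the absolute log2FC over the square root of F. The limit at a count of 0 (3 counts) covers counting error only. Alternatives were other scalings and filters, DESeq2 1.42.0, limma 3.58.1 (voom, and log2 FPKM with a pseudocount of 1 or 0.1 and FPKM of at least 1 in 3 libraries), a replicate block and leaving out each library. No library was a copy of another (chi-square over degrees of freedom of at least 7.67 within groups). The steps were also run on simulated counts in which few entries changed. That run does not check the scaling or the call rate where most entries change, as here.

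The named genes are all 39 members, PGK1, the markers and the 3 genes of each further list with the smallest adjusted p. FLCN, FNIP1, MTOR, NCOA4, TEX264, ATG16L2, ATG9B, TFEC and the motif TGACGTC were named after their values were seen. So were MLST8, RPTOR, AKT1S1, PRKAA1, PRKAA2, PRKAG1, FNIP2 and SNAP29. Members and lists were chosen with earlier results of these data known. Exon overlaps and gene positions come from GENCODE 29 on GRCh38, matched by Ensembl identifier for 39 of 39 genes.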

Additional observations from a re-analysis of the deposited data

How the results depend on the processing

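Over 19 alternative scalings, filters, tools and left-out libraries, the autophagy genes that rose numbered 6 to 8 and those that fell 17 to 20, and all entries 4178 to 5144 up and 4653 to 5443 down. Leaving out 1 library gave 6 to 8 and 17 to 20 autophagy genes, and 4810 to 5022 and 4800 to 4955 entries. Of 25 called genes 23 kept their call and direction in every one of the 19, the exceptions being ATG14 and ATG16L1. ATG14 also missed on log2(FPKM + 1) (limma adjusted p = 0.0665), and ATG16L1 with DESeq2 (0.0708). Requiring at least 2-fold left 0 rises and 5 falls, and 1713 and 1733 entries.

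Some genes that were never called for a rise or fall on counts changed sign. With library totals the log2 fold change was -0.021 for ATG3, -0.0099 for ATG4A and -0.043 for ATG10. On log2(FPKM + 1), with or without the FPKM filter, it was -0.0086, -0.044 and -0.067, and on log2(FPKM + 0.1) -0.0085, -0.051 and -0.091, in the same order. ATG10 was -0.0068 with limma-voom. Without 1 library ATG3 ranged from -0.011 to 0.054, ATG4A from -0.042 to 0.13, ATG10 from -0.11 to 0.089 and ATG13 from -0.037 to 0.015. The cause was not tested.

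With the replicate number as a block, 8 autophagy genes rose and 18 fell, and 4973 entries rose and 4970 fell. CALCOCO2 was then called (0.24, edgeR adjusted p = 0.0269), and ATG10 was -0.00059. Same-numbered libraries showed no strong shared deviation (Pearson r -0.013, -0.013 and 0.095 across genes). Differently numbered libraries gave r from -0.060 to 0.070. With 3 libraries per group, such values cannot exclude a pairing. ULK2, TFEB and MAP1LC3A are limited by low counts.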
